A study of Mus musculus with 6 samples.

Results

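The genes described here encode the contractile machinery of smooth muscle and 2 surface or signalling proteins of vessel wall cells. They are Acta2, Actg2, Myh11, Tagln, Cnn1, Lmod1, Des, Myocd, Rgs5 and Mcam, 10 genes of 23669 rows in the deposited table, each found by its symbol on a single row. The rule that picks them uses their symbols, and they were proposed with earlier results of these data known. Smooth muscle cells shorten when myosin filaments pull on actin filaments, and calponin, transgelin, leiomodin and desmin stabilise or tune these filaments. The genes of this machinery share a control point in many tissues, serum response factor (SRF) with its partner myocardin. SRF binds a short element called the CArG box. In the kidney such cells line arteries and arterioles and form the wall of the renal pelvis and ureter, while pericytes and mesangial cells share part of the programme.

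RNA came from whole kidneys of mice at postnatal day 3, 3 libraries from wild type and 3 from R26NICD2/+Kspcre animals (NICD2 for short). This allele places the intracellular, constantly active fragment of the receptor Notch2 at the Rosa26 locus. Kspcre is a Cre recombinase under the Ksp-cadherin promoter, which is active in tubule epithelium, and smooth muscle is not among the cells that this driver is known for. The labels do not say whether wild type animals carried Kspcre or the allele alone, nor that the libraries of a group came from separate animals. P-values therefore measure the spread between these libraries, which may in part be technical.

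Levels are given in FPKM, fragments scaled to transcript length and library size. Each library held an estimated 15500000 to 17150000 fragments, read from the spacing of its low values. A row named for human Notch2, taken as the transgene, held 60.2 to 79.6 FPKM in NICD2 and at most 0.03 FPKM in wild type. NICD2 replicate 3 held no transcripts of 4 Y-linked genes, which summed to 62.4 to 77.1 FPKM in the other libraries. Wild type replicate 3 and NICD2 replicate 1 held almost no RNA of the adrenal gland, where 9 adrenal genes summed to 5.21 and 2.12 FPKM, against 195.2 to 206.5 FPKM in the other 4 libraries. A list of 11 kidney markers summed to 1271 to 1373 FPKM in wild type and 1107 to 1233 FPKM in NICD2. Of these markers 10 were tested, and 6 were called lower and 1 higher in NICD2 by the test described below. Over all genes tested, 3.86% were lower and 4.93% higher. The list therefore does not give the amount of kidney tissue across genotypes. Of the 10 genes described here, 9 were highest in wild type replicate 1 within wild type, and 9 in NICD2 replicate 2 within NICD2. Of all genes tested, 40.2% and 37.9% were. Both libraries are taken up below.

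Acta2, smooth muscle alpha actin, is the most abundant of the 10 genes. The RefSeq start used for its promoter window (GRCm38.p6) has 2 close variants of the CArG box within 250 bases upstream. Each has 1 inner C or G in place of A or T. The sequences are shown because they are the only matches to this element found in the members' windows. Each line gives 30 bases from 5′ to 3′ on the strand of the gene, with the element in capitals.
Acta2 element 1, chr19:34255438-34255467, minus strand: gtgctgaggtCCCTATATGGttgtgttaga
Acta2 element 2, chr19:34255388-34255417, minus strand: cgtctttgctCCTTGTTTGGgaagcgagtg
Element 1 lies 84 to 75 bases and element 2 lies 34 to 25 bases upstream of that start. GENCODE M21 places the start of Acta2 further upstream, so that both fall in the first exon (5′ UTR) of its transcript. The gene span of Acta2 given below, which reaches 34255585 on the minus strand, also takes in both elements. Promoter windows were found for 6 of the 10 genes: Acta2, Cnn1, Lmod1, Des, Rgs5 and Mcam. Those of Acta2, Cnn1 and Mcam run into the gene spans given below. None of the 6 windows held a strict CArG box, which 1.47% of 32851 promoter windows hold. The looser form, searched after no strict match was seen, is in 8.59% of windows, and 0.67% hold at least 2. The core motif of the Notch partner RBPJ, TGGGAA, searched on both strands, was found once. It lies 27 to 22 bases upstream of the same start of Acta2, where it overlaps element 2. It is present in 21.6% of all windows. These matches describe the letters only.

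The contractile genes differed in how they stood between the genotypes. Cnn1 and Tagln, which encode the actin-binding proteins calponin and transgelin, rose in NICD2 kidneys. Actg2 and Acta2, the smooth muscle actins, had higher means in NICD2 but did not pass the test. Myh11, Lmod1, Des and Myocd overlapped between the groups. Tests used limma on log2(FPKM + 1), with Benjamini-Hochberg adjusted p under 0.05 over 13765 genes as the threshold. Of the 10 members, all 10 were tested, 2 were higher and 0 were lower. Over all genes tested, 8.79% were called, 4.93% higher and 3.86% lower. The median log2 fold change was 0.25 over the members and -0.01 over all genes tested. In whole kidney, a change in cell number and a change in RNA per cell cannot be told apart. Nor can the cells that the RNA came from.

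**Figure D1:**
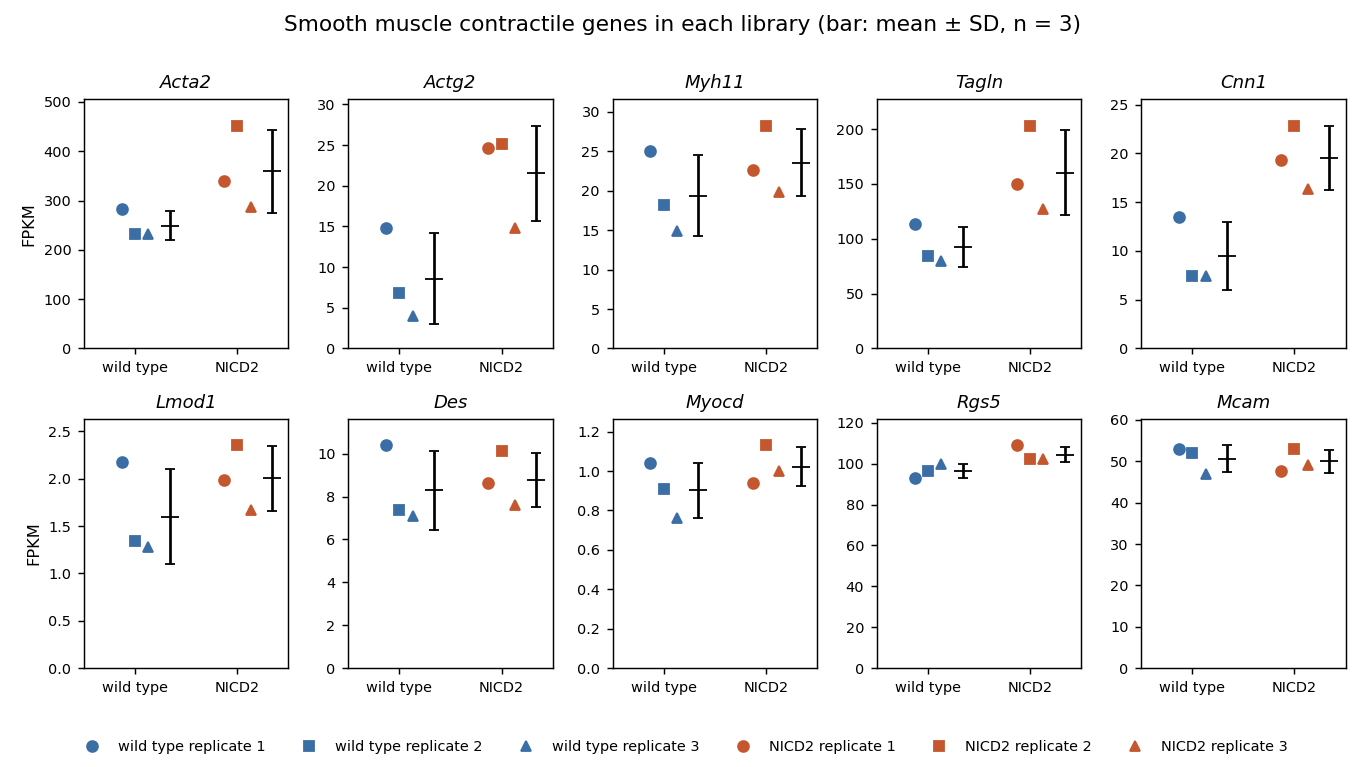
FPKM of each of the 10 genes (vertical axes, each from 0) in wild type (blue) and NICD2 (orange) libraries, with marker shapes for replicates and the mean ± SD (n = 3) as black bars. Cnn1 and Tagln lie higher in every NICD2 library than in any wild type library, while Myh11, Lmod1 and Des overlap, with wild type replicate 1 at the top of its group.

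Cnn1 (gene 12797, chromosome 9, 22099221 to 22109221 on GRCm38) encodes calponin 1, which binds actin and slows myosin. It was at 13.47, 7.47 and 7.42 FPKM in wild type replicates 1 to 3 and at 19.33, 22.84 and 16.3 FPKM in NICD2 replicates 1 to 3. The groups did not overlap, and wild type replicate 1 was the nearest to the NICD2 libraries. The means were 9.453 ± 3.48 and 19.49 ± 3.27 FPKM (SD, n = 3 each), a log2 fold change of 1.01 ± 0.21 (SE) with a limma adjusted p of 0.0208. The call was lost without wild type replicate 2 (adjusted p = 0.0845), wild type replicate 3 (0.0733), NICD2 replicate 1 (0.0518) or NICD2 replicate 2 (0.0661), with log2 fold changes of 0.88, 0.88, 1.01 and 0.89. With no filter on low values the adjusted p was 0.0624, and in the 4 libraries with adrenal RNA it was 0.123. It held without wild type replicate 1, at a log2 fold change of 1.27.

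Tagln (gene 21345, chromosome 9, 45929628 to 45936058) encodes transgelin, or SM22-alpha, an actin cross-linker that appears early in smooth muscle. Its levels were 113.38, 83.92 and 79.91 FPKM in wild type and 149.87, 203.01 and 127.34 FPKM in NICD2. The groups did not overlap, and NICD2 replicate 2 was the highest. The log2 fold change was 0.78 ± 0.18 (limma adjusted p = 0.033). As for Cnn1, the call was lost without wild type replicate 2 (adjusted p = 0.119), wild type replicate 3 (0.103), NICD2 replicate 1 (0.0658) or NICD2 replicate 2 (0.0668), with no filter (0.0848) and in the 4 libraries with adrenal RNA (0.155). GENCODE annotates an antisense gene, Gm48529, over 62.4% of the exon bases of Tagln, and Pcsk7 on the opposite strand over 5.43%. The kit named in the labels does not mark strand, so reads from these partners cannot be told apart there. No values were found for Gm48529 under that symbol. Pcsk7 itself was at 10.84 to 14.15 FPKM, with the NICD2 libraries lower.

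The smooth muscle actins had higher means in NICD2 but missed the threshold. Acta2 (gene 11475, chromosome 19, 34240336 to 34255585) was at 282.29, 232.07 and 232.19 FPKM in wild type and at 339.18, 451.82 and 286.9 FPKM in NICD2. The groups did not overlap, although NICD2 replicate 3 was close to wild type replicate 1. The log2 fold change of 0.51 ± 0.16 was not called (limma adjusted p = 0.0844), with a 95% interval of 0.15 to 0.87 before adjustment over genes. Without NICD2 replicate 3 it was called, at a log2 fold change of 0.66 (adjusted p = 0.0306).

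Actg2 (gene 11468, chromosome 6, 83512909 to 83536251) encodes gamma actin of visceral smooth muscle, the form of hollow organs such as the ureter and gut. It varied most among the 10 genes, from 4.03 to 25.15 FPKM, a 6.24-fold range. Wild type libraries held 14.85, 6.82 and 4.03 FPKM, and NICD2 libraries held 24.7, 25.15 and 14.81 FPKM. NICD2 replicate 3 thus lay just under wild type replicate 1. The log2 fold change was 1.36 ± 0.37 (limma adjusted p = 0.0593). It was called without wild type replicate 1, at 1.81 (adjusted p = 0.00831), and when NICD2 replicate 3 was left out, at 1.6 (adjusted p = 0.0481). It was also called at a mean of at least 5 FPKM (0.0495) and with the replicate number as a block (0.0127). Of the distinct 50-base stretches in their GENCODE transcripts, 0.326% of those of Acta2 and none of those of Actg2 occur in another gene, and Actg2 is not among the genes that share those of Acta2.

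Myh11 (gene 17880, chromosome 16, 14194527 to 14291408) encodes the smooth muscle myosin heavy chain, the motor of the filament. It held 24.99, 18.24 and 14.88 FPKM in wild type and 22.59, 28.26 and 19.87 FPKM in NICD2. Wild type replicate 1 exceeded 2 of the 3 NICD2 libraries. The log2 fold change was 0.29 ± 0.18, with an interval of -0.13 to 0.70 (limma adjusted p = 0.37). Of its 50-base stretches, 0.391% are shared with Myh9 and Myh10.

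Lmod1 (gene 93689, chromosome 1, 135324813 to 135368065), the actin filament nucleator leiomodin 1, was at 2.18, 1.34 and 1.28 FPKM in wild type and 1.99, 2.35 and 1.67 FPKM in NICD2. Des (gene 13346, chromosome 1, 75360292 to 75368579), the intermediate filament desmin that also marks pericytes and mesangial cells, was at 10.38, 7.35 and 7.11 FPKM and at 8.63, 10.12 and 7.62 FPKM. In both genes wild type replicate 1 lay among or above the NICD2 libraries. The intervals of the log2 fold change ran from -0.13 to 0.57 for Lmod1 and from -0.24 to 0.42 for Des (limma adjusted p = 0.426 and 0.759). For Des the sign turned when wild type replicate 3 (-0.002) or NICD2 replicate 2 (-0.01) was left out.

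Myocd (gene 214384, chromosome 11, 65173608 to 65269989), the myocardin coactivator of SRF, was the lowest of the 10, at 0.76 to 1.04 FPKM in wild type and 0.94 to 1.13 FPKM in NICD2. Its long transcript still gave an estimated 107 to 154 fragments per library, with a counting error of 9.67% at the lowest. It passed the filter on low values, which needs 1 FPKM in 3 libraries, through 1 wild type and 2 NICD2 libraries. The log2 fold change was 0.09 ± 0.12, with an interval of -0.17 to 0.35 (limma adjusted p = 0.683).

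Rgs5 and Mcam mark the vessel wall. Rgs5 (gene 19737, chromosome 1, 169655501 to 169695813), a brake on G protein signalling found in pericytes and arteriolar smooth muscle, was at 93.08, 96.14 and 99.63 FPKM in wild type and at 108.87, 102.28 and 102.08 FPKM in NICD2. The groups did not overlap but lay close, with a log2 fold change of 0.12 ± 0.06 (limma adjusted p = 0.272). Mcam (gene 84004, chromosome 9, 44134581 to 44142727), an adhesion molecule of smooth muscle, pericytes and endothelium, was at 52.96, 51.98 and 46.97 FPKM and at 47.78, 53.05 and 49.12 FPKM. Its interval was the narrowest after that of Rgs5, from -0.18 to 0.14 (limma adjusted p = 0.911). The sign of this small value turned without wild type replicate 1 (0.01), wild type replicate 2 (0.002) or NICD2 replicate 1 (0.01). In all, the groups did not overlap for 4 of the 10 genes, each higher in NICD2, where 15.0% of all genes tested were higher without overlap and 15.5% lower.

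**Figure D2:**
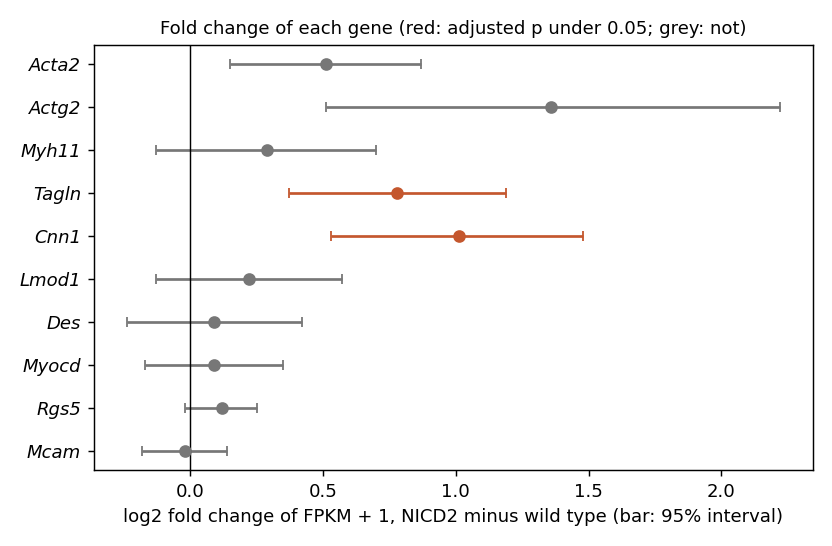
Log2 fold change of FPKM + 1, NICD2 minus wild type, of each gene (points) with its 95% interval (bars), red where the adjusted p is under 0.05. Cnn1 at 1.01 and Tagln at 0.78 passed the test, and Actg2 has the widest interval, from 0.51 to 2.22.

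In order of mean level per length, Acta2 was the highest in all 6 libraries. Tagln, Rgs5 and Mcam followed, with Tagln and Rgs5 overlapping in wild type and Tagln above Rgs5 in NICD2. Myh11 came next and lay above Cnn1, Actg2 and Des in wild type, where those 3 overlapped. In NICD2 Myh11, Cnn1 and Actg2 overlapped and Des lay below them. Lmod1 and Myocd were the lowest and did not overlap each other. The mean of Acta2 over the libraries exceeded that of 98.7% of tested genes, that of Lmod1 8.1% and that of Myocd 0.5%. In the authors' deposited table, whose header names DEGseq, 7 of the 10 genes had a q-value under 0.05, each of them higher in NICD2. That table calls 22.9% of its genes with a q-value higher. Of these 7 members, limma called only Cnn1 and Tagln, and q-values of DEGseq are not on the same scale as its adjusted p. In the authors' deposited table the log2 fold change was 1.03 for Cnn1 and 0.80 for Tagln, and Des, Myocd and Mcam had q-values of 0.0979, 0.0873 and 0.31.

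Most of the members moved together from library to library within each group. Of the 7 filament and filament-binding genes (Acta2, Actg2, Myh11, Tagln, Cnn1, Lmod1 and Des), 7 were highest in wild type replicate 1 among the wild type libraries. All 7 also had the NICD2 libraries in the order replicate 2, replicate 1, replicate 3 from high to low, and 6 had the wild type libraries in the order 1, 2, 3 (Acta2 differed). Of all genes tested, 40.2% were highest in wild type replicate 1, 37.9% in NICD2 replicate 2 within NICD2, 19.5% had that NICD2 order and 21.8% that wild type order. On the log2(FPKM + 1) scale, wild type replicate 1 was above its group mean by 0.89 for Actg2, 0.52 for Cnn1, 0.38 for Myh11 and 0.31 each for Tagln, Des and Lmod1. NICD2 replicate 2 was above its group mean by 0.37 for Tagln and 0.36 for Acta2, and NICD2 replicate 3 was below it by 0.48 for Actg2 (a deviation of -0.48). Myocd and Mcam followed weakly, with deviations of at most 0.11 in size, and their lowest NICD2 library was replicate 1. Rgs5 had another order. Its highest wild type library was replicate 3.

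**Figure D3:**
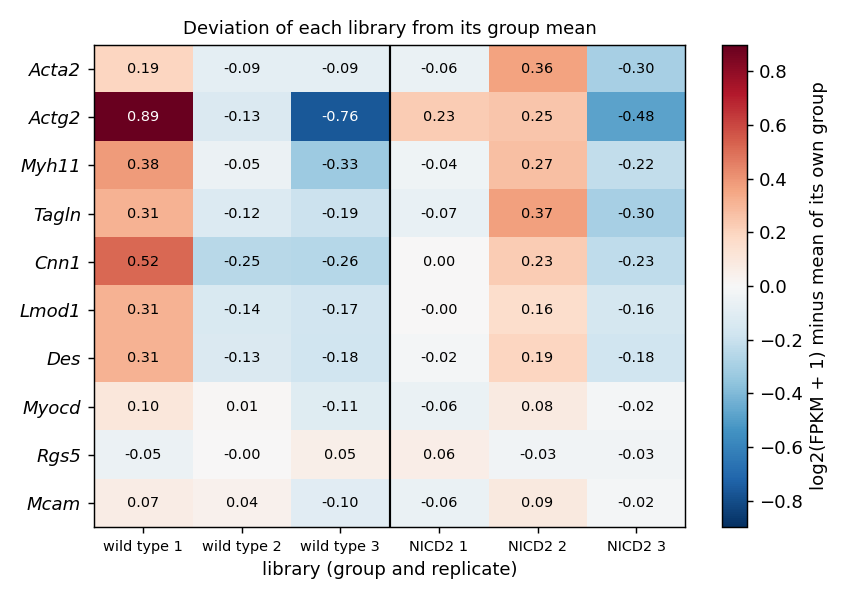
Deviation of each library (columns) from the mean of its own group on log2(FPKM + 1), for the 10 genes (rows), red above and blue below the mean. Wild type replicate 1 and NICD2 replicate 2 are above their means for the 7 filament genes, and deviations of Rgs5, Mcam and Myocd are at most 0.11 in size.

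Markers of some other tissues were also highest in wild type replicate 1, and those of others were not. Of 9 genes of urothelium, the lining of renal pelvis and ureter, 8 were highest there among the wild type libraries, and their summed level was 102.2 FPKM against 49.56 and 53.59 FPKM in replicates 2 and 3. In NICD2 the sums were 70.31, 40.4 and 45.37 FPKM, with the lowest in replicate 2, where the contractile genes were highest. Uroplakin 2 (Upk2) was at 13.72 FPKM in wild type replicate 1 and 5.38 and 4.94 FPKM in the others, and Upk3a at 16.56, 7.11 and 6.86 FPKM. The uroplakins Upk1b and Upk3a and the surface protein Psca fell with genotype and Upk1a rose, so this list does not give the amount of urothelium across genotypes. Striated muscle genes summed to 11.78 FPKM in wild type replicate 1 and to 5.1 to 6.91 FPKM elsewhere, with 9 of the 10 genes that had values highest there. The most abundant, Tnnt3 and Mylpf, were at 2.84 and 2.16 FPKM in wild type replicate 1 and at most 2.44 and 2.12 FPKM elsewhere. Tnnt2 was at 2.98 FPKM there and at 2.12 FPKM or less elsewhere. Acta1 reached 1.48 FPKM and Tnnc2 1.18 FPKM, Ckm was at most 0.29 FPKM, and the defining factors Myod1 and Myog are on rows without values. Fat cell genes were also highest in wild type replicate 1 within wild type, for 5 of 5 genes, with sums of 368.7 to 471.9 FPKM in wild type and 323.7 to 377.4 FPKM in NICD2. Fabp4, which endothelium also expresses, carried most of that sum, at 341.87 to 436.42 FPKM in wild type. Adipoq, a marker of fat cells, was at 10.66, 5.22 and 7.19 FPKM in wild type and 3.27, 3.26 and 5.49 FPKM in NICD2. Stromal genes, led by Col3a1, summed to 1319 to 1525 FPKM in wild type and 1220 to 1487 FPKM in NICD2. Their highest wild type sum was in replicate 2, with 1489 FPKM in replicate 1. Within wild type, 4 of 12 stromal and 3 of 10 endothelial genes were highest in replicate 1, where 40.2% of all genes tested were. The same held for 4 of 9 adrenal genes and 3 of 11 kidney markers. Within NICD2, 37.9% of all genes tested were highest in replicate 2. So were 11 of 15 genes of pericytes and other vessel wall cells, 6 of 9 adrenal, 5 of 12 stromal and 4 of 10 endothelial genes. For striated muscle, urothelium, kidney and fat cells the counts were 3 of 10, 1 of 9, 2 of 11 and 0 of 5. The stromal sum was also highest there, at 1220, 1487 and 1428 FPKM in NICD2 replicates 1 to 3. The part of these tissues in the levels of the contractile genes was not tested.

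Leaving out wild type replicate 1, limma called 3 of the 10 genes, Cnn1, Tagln and Actg2, each higher in NICD2. It called 4 when NICD2 replicate 3, the library without Y-linked transcripts, was left out. It called 0 when any 1 of the other 4 libraries was left out. The part of sex in these levels was not tested.

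To set the genes against a common partner within each library, FPKM was divided by that of Myh11, a comparison added after seeing the data. Cnn1 was at 0.539, 0.41 and 0.499 of Myh11 in wild type and at 0.856, 0.808 and 0.82 in NICD2. These ratios did not overlap, and their spread was small beside the difference, at 0.482 ± 0.066 and 0.828 ± 0.025 (SD, n = 3). Tagln was at 4.54, 4.6 and 5.37 times Myh11 in wild type and 6.63, 7.18 and 6.41 times in NICD2. Actg2 was at 0.594, 0.374 and 0.271 of Myh11 and at 1.09, 0.89 and 0.745. The ratio of Des to Myh11 was lower in each NICD2 library, at 0.415, 0.403 and 0.478 in wild type and 0.382, 0.358 and 0.383 in NICD2.

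Ratios of Acta2 (11.3 to 15.6 in wild type, 14.4 to 16 in NICD2) and of Lmod1 (0.0735 to 0.0872 and 0.0832 to 0.0881) overlapped, as did those of Myocd, Rgs5 and Mcam. In exact two-sided permutation tests over the 6 libraries, each of the 4 ratios that did not overlap had p = 0.1, the smallest that 3 against 3 allows, and 0.225 after adjustment over the 9 ratios. No ratio could therefore pass the threshold. Over all genes tested with no value of 0, the ratio to Myh11 was higher without overlap for 1.57% and lower for 11.7%. All these ratios share Myh11 and its own error.

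**Figure D4:**
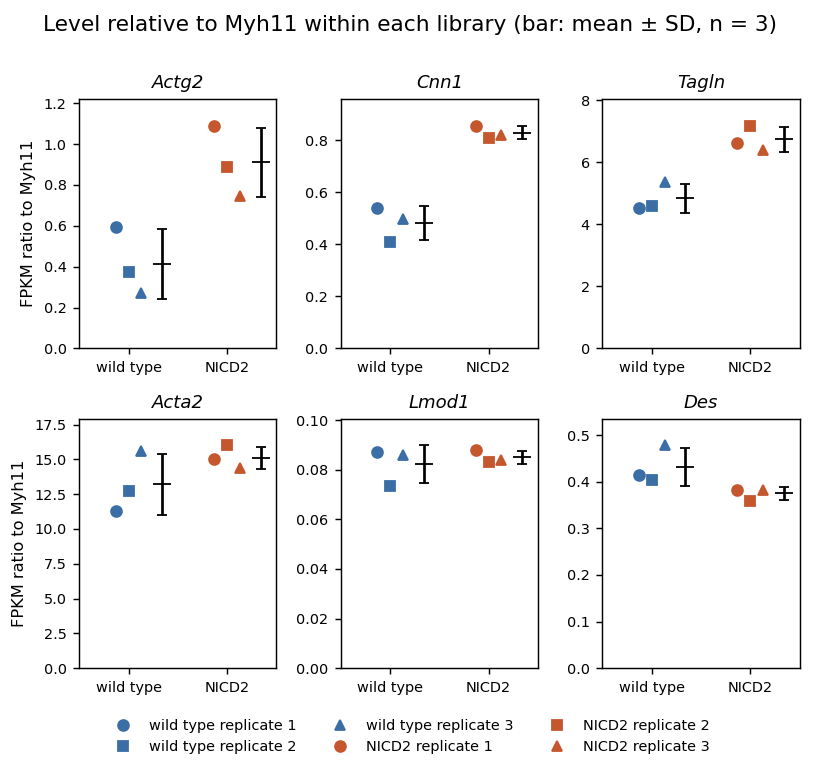
FPKM of 6 genes divided by FPKM of Myh11 in the same library (vertical axes, each from 0), wild type in blue and NICD2 in orange, with the mean ± SD (n = 3) as black bars. Cnn1 separates most clearly, at 0.41 to 0.539 in wild type and 0.808 to 0.856 in NICD2, while Lmod1 overlaps, at 0.0735 to 0.0881 over the 6 libraries.

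Beyond the members, a list of 32 other genes of the contractile apparatus held 30 tested genes, of which 1 rose and 0 fell, where 4.93% of all genes tested were higher and 3.86% lower. That 1 gene of 30 is near that background. The median over the list was 0.08 on the log2 scale. The gene that rose was Actn1, alpha-actinin 1, which anchors actin filaments, at 58.56, 55.12 and 49.5 FPKM in wild type and 69.31, 89.8 and 70.6 FPKM in NICD2 (log2 fold change 0.48 ± 0.11, limma adjusted p = 0.0295). Its groups did not overlap. The call of Actn1 was lost without wild type replicate 2 (adjusted p = 0.0894), wild type replicate 3 (0.0935) or NICD2 replicate 2 (0.0514), with no filter (0.0681) and in the 4 libraries with adrenal RNA (0.0981). Without wild type replicate 1 a second gene of the list was called, Tpm1.

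Tpm1, a tropomyosin that winds along actin, was at 311.7 ± 32.6 and 399.9 ± 46.3 FPKM in wild type and NICD2 (limma adjusted p = 0.0733, and 0.0489 without wild type replicate 1). Nexn, an actin-binding protein, was at 9.52 ± 1.15 and 12.46 ± 1.42 FPKM (adjusted p = 0.0764), and Fhl1, a LIM protein of muscle, at 43.4 ± 2.56 and 50.62 ± 3.08 FPKM (adjusted p = 0.0985). All 3 had groups that did not overlap. Of the 30 genes, 9 were higher and 3 lower without overlap, where 15.0% of all genes tested were higher and 15.5% lower. Mylk and Myl9, chosen after their values were seen, act in the switch of contraction and overlapped between groups. Myosin light chain kinase (Mylk) was at 61.98 ± 5.22 and 59.46 ± 5.62 FPKM and the light chain Myl9 at 214.8 ± 31.1 and 242.3 ± 43.2 FPKM (limma adjusted p = 0.727 and 0.505). Of the 32 genes, 25 were highest in NICD2 replicate 2 among the NICD2 libraries, where 37.9% of all genes tested were. Among the wild type libraries 16 of the 32 were highest in replicate 1, near the 40.2% of all genes tested.

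Of 14 regulators of smooth muscle formation, 12 were tested, 0 rose and 1 fell, a count near the 4.93% higher and 3.86% lower over all genes tested. The median over these 12 was -0.04. Mef2c, a muscle transcription factor that is also expressed in endothelium, was at 11.61, 13.11 and 12.47 FPKM in wild type and 7.98, 9.45 and 9.86 FPKM in NICD2 (log2 fold change -0.41 ± 0.09, limma adjusted p = 0.0254). Its groups did not overlap. The call of Mef2c was lost without wild type replicate 2 (adjusted p = 0.103), wild type replicate 3 (0.0741), NICD2 replicate 1 (0.0694) or NICD2 replicate 2 (0.0531), with no filter (0.0572) and in the 4 libraries with adrenal RNA (0.139). The 10 endothelial markers had summed levels of 409.4 to 454.4 FPKM in wild type and 346.2 to 380.6 FPKM in NICD2. Of these 10, 3 were called lower (3.86% of all genes tested were), 6 were lower without overlap (15.5% were) and 0 had a log2 fold change above 0. The most abundant, Emcn, was at 88.16 to 98.12 FPKM in wild type and 65.99 to 71.23 FPKM in NICD2. The part of endothelium in the level of Mef2c was not tested.

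Srf, named after its values were seen, was at 15.91 ± 1.87 and 16.76 ± 2.66 FPKM (limma adjusted p = 0.775). The SRF cofactors Mkl1 and Mkl2, likewise named afterwards, had wild type and NICD2 means of 13.63 and 14.14 FPKM (Mkl1) and of 8.943 and 9.227 FPKM (Mkl2). Of factors that pattern the ureter wall, the hedgehog effector Gli1 was at 8.94 ± 1.24 and 7.743 ± 0.979 FPKM, Tshz3 at 3.42 ± 0.501 and 2.983 ± 0.236 FPKM and the ligand Bmp4 at 21.59 ± 1.8 and 23.14 ± 0.686 FPKM, none of them called. Tbx18 and Foxf1 lay under 1 FPKM in every library and were not tested.

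Among 15 genes of pericytes and other mural cells, 13 were tested, 2 rose and 1 fell, beside 4.93% higher and 3.86% lower over all genes tested. The median was -0.01, as over all genes tested. Notch3, the Notch receptor of arterial smooth muscle and pericytes, was at 15.42, 16.75 and 14.75 FPKM in wild type and 25.45, 28.57 and 25.66 FPKM in NICD2. Its groups were well apart (log2 fold change 0.73 ± 0.07, limma adjusted p = 6.42e-04). Gucy1b3, a subunit of the nitric oxide receptor guanylate cyclase, was at 10.34, 9.56 and 10.1 FPKM and at 13.82, 14.17 and 13.04 FPKM (log2 fold change 0.42 ± 0.07, limma adjusted p = 0.00676).

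Agtr1a, the angiotensin II receptor of vessels and mesangium, fell, at 24.45, 27.18 and 23.36 FPKM in wild type and 15.78, 16.31 and 19.14 FPKM in NICD2 (log2 fold change -0.53 ± 0.09, limma adjusted p = 0.00869). The growth factor receptor Pdgfrb, which marks pericytes and stroma, was at 40.32 ± 2.1 and 33.89 ± 1.74 FPKM and was not called (limma adjusted p = 0.059). The calls of Notch3, Gucy1b3 and Agtr1a held without each library in turn, and that of Gucy1b3 was lost in the 4 libraries with adrenal RNA (adjusted p = 0.0628). Renin (Ren1), made by modified smooth muscle cells of the afferent arteriole, was at 91.64 to 151.19 FPKM in wild type and 133.65 to 182.96 FPKM in NICD2.

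**Figure D5:**
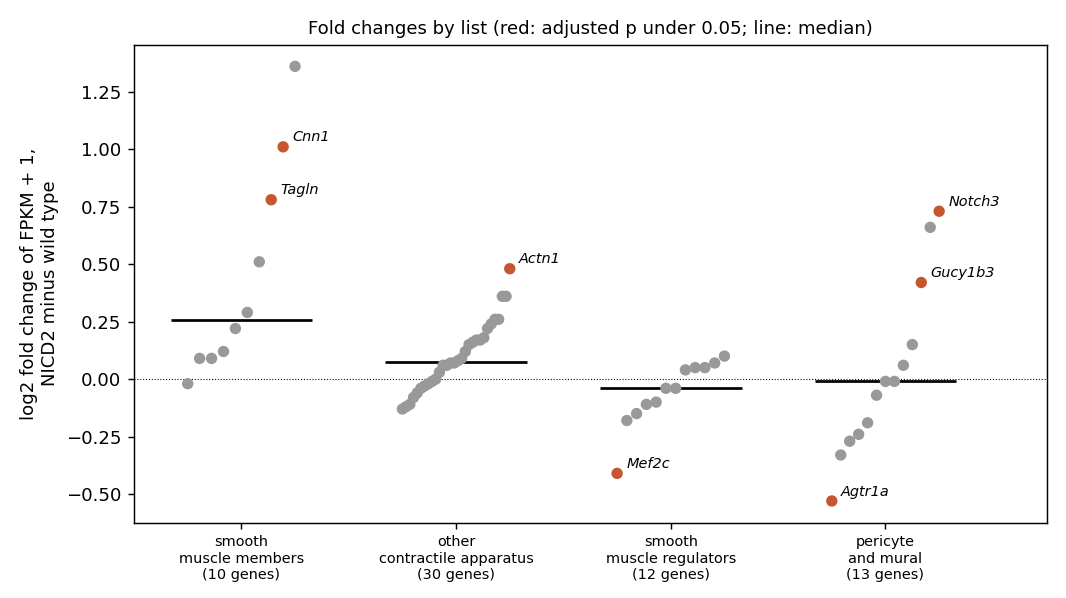
Log2 fold change of FPKM + 1, NICD2 minus wild type (vertical axis), of each tested gene in 4 lists (columns), red where the adjusted p is under 0.05, with the list's median as a line. The medians are 0.25 for the 10 members, 0.08 for other contractile genes, -0.04 for regulators and -0.01 for mural genes.

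The genes nearest to the filament genes in their pattern over the 6 libraries were found by the root mean square difference between centred log2(FPKM + 1) profiles, among 12085 named genes with a mean of at least 2 FPKM. The reference was the mean profile of the 7 filament genes, which stood at 0.11, -0.43 and -0.59 in wild type and 0.31, 0.56 and 0.04 in NICD2. The nearest were Gadd45b (0.101), Gadd45g (0.102), Slc16a3 (0.117), Gstm2 (0.137) and Wnt11 (0.137), where the median of all genes compared was 0.412. Gadd45b, a stress-response gene, was at 6.78, 5.51 and 4 FPKM in wild type and 9.31, 10 and 6.81 FPKM in NICD2. The filament genes themselves stood at 0.116 for Tagln, 0.14 for Acta2 and 0.484 for Actg2, with Myh11, Cnn1, Lmod1 and Des between Acta2 and Actg2. All of them but Tagln thus lay farther from their own mean profile than each of the outside genes just named. With 6 libraries, this likeness describes these samples only.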

How the data were processed

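Whole kidneys at postnatal day 3 were profiled by RNA-seq in 3 wild type and 3 NICD2 libraries. FPKM per gene and sample were computed by the authors and deposited to 2 decimals. A log2 fold change and a q-value per gene, from DEGseq per the file headers, are also deposited values. Bowtie 0.12.2 and mm8 appear in the submitters' processing notes. Gene positions in the table match GRCm38, however, and coordinates are given on that build. No label or header names the program behind the FPKM.

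Rows without FPKM (4010 of 23669) were left out. The 13765 genes that reached 1 FPKM in 3 or more libraries were tested on log2(FPKM + 1) in limma 3.58.1 under R 4.3.3, two-sided, with the trend option and no covariate. The fit was tested on simulated data. There it called 63% of true log2 changes of 0.5 in size, 96% of those of 1.0 and 100% of those of 2.0. Of its calls, 5.85% were false. Depth was estimated by scanning for the library size at which most low values of short genes with 1 transcript are whole fragments, after taking 120 bases off each length, a correction added once a scan without it had left more values fractional. Of those values, 75.7% to 79.9% came within 0.15 fragments of a whole number. The scan chose the library size and the correction that made this share largest. The 30.0% that chance gives at a size fixed in advance is therefore not its baseline. Fragment numbers derived from it carry counting error only.

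The members and gene lists were chosen with earlier results of these data known. The rule for named genes took all members, the called genes of each list filled up to 4 by smallest p, and the 5 genes nearest in pattern. In lists of other cell types it took the most abundant genes and those with 1 library at least 2 times the next. That part was followed in full for urothelium and striated muscle only. For other lists the text gives sums and 0 to 2 genes. Upk1b, Ckm, Myod1 and Myog were named outside the rule. Promoter windows and gene positions come from RefSeq (GRCm38.p6), and shared 50-base stretches from GENCODE M21 transcripts, which replace the planned protein comparison. The 27 columns of the authors' single-pair comparisons were left aside. Other steps ran in Python 3.11.15 (scipy 1.17.1, pandas 2.3.3, matplotlib 3.10.9).

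Alternatives were a pseudocount of 0.1, no filter, a mean of at least 5 FPKM, median-ratio and upper-quartile scaling, a replicate block, and leaving out libraries one at a time. A term for adrenal RNA, the 4 libraries with adrenal RNA, ratios to Myh11 and the looser promoter motif were added after seeing the data.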

Additional observations from a re-analysis of the deposited data

How the results depend on the processing

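The call of Cnn1 and Tagln held with a pseudocount of 0.1, both scalings, the stricter mean and the adrenal term. With no filter on low values none of the 10 members was called higher (0, against 2), nor any other contractile gene (0), and 0 regulators were called lower. In the 4 libraries with adrenal RNA, fewer samples, these counts were also 0, 0 and 0, while over all genes 348 were called higher and 207 lower (679 and 531 in all 6) and 1 mural gene was called higher. With the adrenal term 2 mural genes were called lower. The cause was not tested. Without 1 library, members called higher ranged from 0 to 4 (4 when NICD2 replicate 3 was left out, 0 for each of wild type replicates 2 and 3 and NICD2 replicates 1 and 2) and all genes from 388 to 589 higher and 236 to 411 lower. Other contractile genes called higher ranged from 0 to 2, regulators called lower from 0 to 1 and mural genes called higher from 2 to 3. Same-numbered libraries did not deviate together (correlations across genes of -0.033, 0.059 and -0.045), and none correlated best with its own number. With the replicate block 3 members were called higher, with Actg2 at adjusted p = 0.0127, and over all genes 616 higher and 439 lower. With single libraries left out, the log2 fold change of Des ran from -0.01 to 0.24, below 0 without NICD2 replicate 2 (-0.01) or wild type replicate 3 (-0.002). That of Mcam ran from -0.07 to 0.01, above 0 when NICD2 replicate 1 (0.01) or wild type replicate 1 (0.01) or 2 (0.002) was left out. Lmod1 and Myocd were not tested at a mean of at least 5 FPKM. At the estimated depth, Actg2 and Lmod1 had as few as 83 and 84 fragments in a library, with a counting error of 10.9% for Lmod1.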
